A study of Homo sapiens with 6 samples.

Results

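The septins are a family of GTP-binding cytoskeletal proteins, described here in BE(2)-C_tetoff_KDM4C cells. BE(2)-C is a human neuroblastoma line, and its derivative carries KDM4C, a histone H3 lysine 9 demethylase, under a tet-off promoter that doxycycline shuts down. Of 10 septin genes listed, SEPTIN2 to SEPTIN11, 9 had at least 1 probe set named for that gene alone in the platform annotation, of 14884 named genes in all. SEPTIN5 had no named probe set and was not analysed here. The genes were chosen by symbol, and the family was picked from the results of this same comparison, so the differences of its members are given as a description and support nothing. Expression was measured on 6 whole-transcript arrays of total RNA at day 6, 3 from cells kept in doxycycline (construct off) and 3 from cells kept without it (construct on), all in medium with dialyzed serum. Both groups carry the construct, and cells without it were not analysed here, so KDM4C induction and doxycycline withdrawal cannot be told apart. The labels do not say whether the line is a single clone, and they do not tie the 3 samples of a group to separate cultures, so errors measure the spread between these samples.

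Septins assemble into rods that hold members of several subgroups side by side, and the rods join into filaments and rings. The rings form at the cleavage furrow of dividing cells, and in neurons septins also lie at dendritic spines, axon branch points and presynaptic terminals. By sequence the family splits into the subgroups of SEPTIN2 (with SEPTIN4 and SEPTIN5), SEPTIN3 (with SEPTIN9), SEPTIN6 (with SEPTIN8, SEPTIN10 and SEPTIN11) and SEPTIN7, the sole member of its own. SEPTIN3 and SEPTIN5 are known chiefly from neurons, SEPTIN4 from brain and testis, and the other 7 are taken here as ubiquitous.

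SEPTIN3 was lower with the KDM4C construct on, while the 7 ubiquitous septins lay close to their levels with the construct off. SEPTIN3 differed by -0.52 on the log2 scale (no doxycycline minus doxycycline), and the ubiquitous septins differed by 0.01 to 0.24. Of the 9 genes, 1 was called at a limma adjusted p below 0.05, SEPTIN3, where 0.341% of all 53617 probe sets were called and 0.0933% were called lower. That adjusted p was 0.0469, just inside the threshold. With any 1 of the 6 arrays left out it was 0.139 to 0.180, so the call was lost without any one of them. Those fits called 0 to 15 of all probe sets, against 183 with all 6 arrays, so the loss was not particular to SEPTIN3. In bulk RNA, fewer cells of a type and less RNA per cell cannot be told apart.

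To show what kind of start sites these genes have, the 250 bases upstream of the start are given for the 3 members with a single promoter window in RefSeq (GRCh38.p14), which are all of the SEPTIN6 subgroup and include SEPTIN6, the ubiquitous septin with the largest difference. Capitals mark the GC box GGGCGG on either strand, the letters that transcription factor SP1 is known to bind. The SEPTIN6 stretch is chrX:119693169-119693418 on the minus strand, that of SEPTIN10 is chr2:109613967-109614216 on the minus strand and that of SEPTIN11 is chr4:76949502-76949751 on the plus strand.
SEPTIN6: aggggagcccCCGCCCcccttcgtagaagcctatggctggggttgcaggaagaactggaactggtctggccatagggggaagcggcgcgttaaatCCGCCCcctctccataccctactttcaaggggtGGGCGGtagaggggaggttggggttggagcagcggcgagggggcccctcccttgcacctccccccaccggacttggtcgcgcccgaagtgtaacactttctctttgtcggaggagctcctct
SEPTIN10: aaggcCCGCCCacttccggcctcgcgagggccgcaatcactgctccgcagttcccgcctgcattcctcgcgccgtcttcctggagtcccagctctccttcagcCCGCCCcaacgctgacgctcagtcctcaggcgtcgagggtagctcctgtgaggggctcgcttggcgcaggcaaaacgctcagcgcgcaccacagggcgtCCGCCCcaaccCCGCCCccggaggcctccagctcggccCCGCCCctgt
SEPTIN11: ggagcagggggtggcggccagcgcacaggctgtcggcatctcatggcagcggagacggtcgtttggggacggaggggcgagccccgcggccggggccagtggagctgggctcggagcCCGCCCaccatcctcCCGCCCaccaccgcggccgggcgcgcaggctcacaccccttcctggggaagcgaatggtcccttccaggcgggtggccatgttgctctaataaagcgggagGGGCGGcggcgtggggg

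These stretches held 3 GC boxes for SEPTIN6, 5 for SEPTIN10 and 3 for SEPTIN11. Promoter windows of 300 bases, 250 before and 50 after the start, were matched by symbol for 8 of the 10 genes, 25 windows in all. SEPTIN3 and SEPTIN5 were not matched and are in none of these counts. A GC box on either strand stood in 16 of the 25 windows and in 45.0% of all 35116 windows of the same length. The 25 are not separate promoters: SEPTIN9 alone has 10, and some windows of SEPTIN2 and of SEPTIN7 overlap and share bases. The E-box CACGTG, which reads the same on both strands and is bound by MYC proteins, stood in 2 of the 25 windows, 1 of SEPTIN2 and 1 of SEPTIN4, against 7.26% of all windows. The SEPTIN6 window had 18 CpG dinucleotides, against 33 for SEPTIN10, 31 for SEPTIN11 and a median of 14 over all windows. Of the 8 genes, 7 had at least 1 window at or above the upper quartile of 28 CpG, and the exception was SEPTIN6. A gene with many windows reaches that mark more easily, and SEPTIN9 had 10, SEPTIN4 4 and SEPTIN6 1. The quartile is of single windows, so the count of 7 has no background share here. These are letter counts, and the arrays measured no binding or chromatin mark at these sites.

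The labels were checked on the induced gene first. KDM4C was at 9.03 ± 0.05 without and 7.76 ± 0.05 with doxycycline (log2, SD, n = 3 each), 2.40-fold higher, with groups that did not overlap. Over all probe sets, array medians lay between 3.94 and 3.96 and the correlation between arrays between 0.990 and 0.993. Of 10 neuroblastoma markers 8 had a named probe set and none of the 8 lay below the median probe set. PHOX2A, a transcription factor of sympathetic neurons, was at 9.13 without and 8.98 with doxycycline, and the neuronal stathmin STMN2 at 12.07 and 12.30. Of markers of other cells, SOX10 (Schwann cells), TYROBP (immune), VWF (endothelium), GP9 (platelets) and KRT5 (epithelium) had group means below 4, near or under the median probe set. Of the 4 to 6 markers listed for each of these cell types, 3 had a named probe set, and 2 or 3 of those 3 lay below the median probe set. The fibroblast marker LUM was bright, at 11.06 ± 0.04 without and 11.36 ± 0.04 with doxycycline; it was the 1 of 6 fibroblast markers with a named probe set.

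SEPTIN3, a neuronal septin found at nerve terminals, was at 9.77, 9.90 and 9.89 (log2 expression) on the 3 arrays with doxycycline and at 9.30, 9.38 and 9.32 on the 3 without. All 3 arrays without doxycycline were low and the groups did not overlap. The means were 9.85 ± 0.07 with and 9.33 ± 0.04 without (SD, n = 3 each). The difference of -0.52 (limma SE 0.07, 95% interval -0.68 to -0.36) is a level 1.43-fold lower with the construct on. Among 14884 genes, 72 had a lower difference, and among the 20 named genes called lower SEPTIN3 ranked 18th by size. Its decrease was thus among the smaller ones of that list. Neuroblastoma markers did not share a direction. CHGA, a granin of secretory granules, was at -0.40 (limma adjusted p = 0.0856) and STMN2 at -0.23 (limma adjusted p = 0.225), while the catecholamine enzymes TH and DBH were at 0.34 and 0.28 (limma adjusted p = 0.190 and 0.244). LUM, the fibroblast marker above, was at -0.30 (limma adjusted p = 0.139). The part of these genes in the SEPTIN3 value was not tested.

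**Figure D1:**
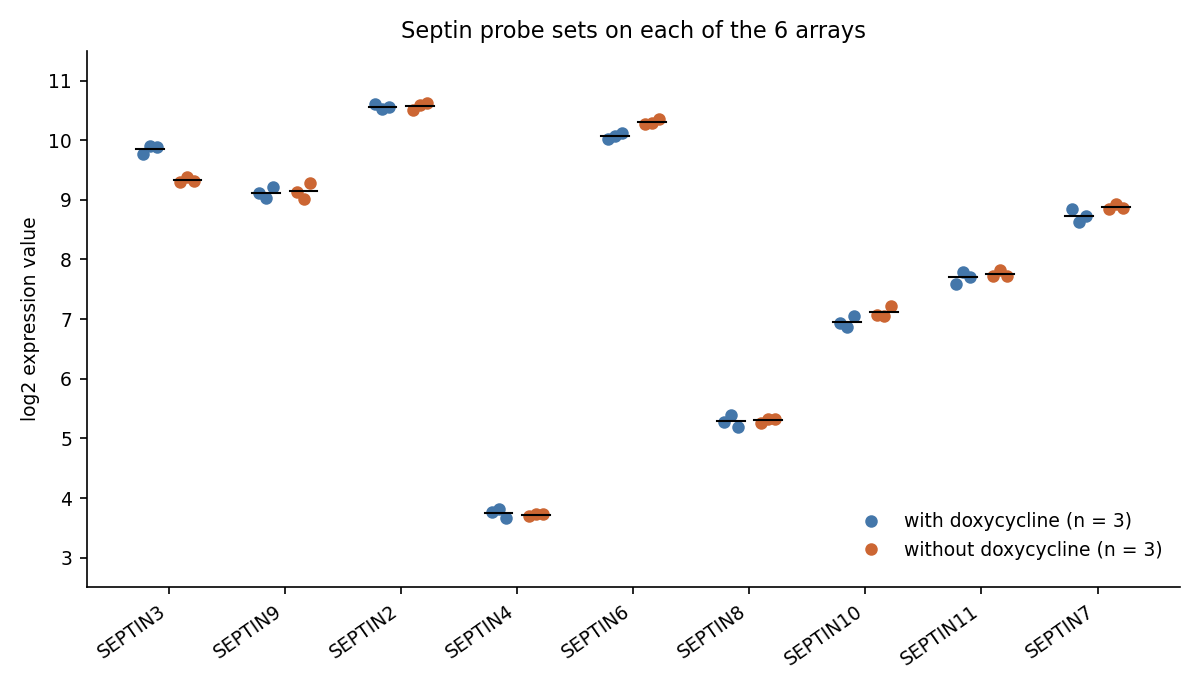
Log2 expression value of the probe set that stands for each septin gene (y axis) on every array, with doxycycline in blue and without in orange, 3 arrays each, and black lines at the group means. The groups do not overlap for SEPTIN3 (9.77 to 9.90 with and 9.30 to 9.38 without doxycycline), SEPTIN6 (10.02 to 10.12 and 10.28 to 10.35) and, barely, SEPTIN7; levels of different genes come from different probes and are not comparable.

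SEPTIN9, the ubiquitous member of the SEPTIN3 subgroup and a known binder of actin and microtubules, was at 9.11, 9.03 and 9.21 with doxycycline and 9.13, 9.01 and 9.28 without. The groups overlapped fully. The difference was 0.03 with a 95% interval of -0.19 to 0.25, which does not reach the SEPTIN3 value of -0.52.

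In the SEPTIN2 subgroup no gene stood apart. SEPTIN2, a core subunit of the rods and a scaffold for myosin in the cleavage furrow, was at 10.61, 10.53 and 10.56 with doxycycline and 10.50, 10.59 and 10.63 without. Its difference was 0.01 with an interval of -0.15 to 0.17. SEPTIN4, known from the sperm annulus and from the pro-apoptotic isoform ARTS, was at 3.76, 3.81 and 3.67 with and 3.70, 3.73 and 3.73 without doxycycline, at -0.03 (interval -0.19 to 0.13). The probe set lay below the median of all probe sets, so a change of SEPTIN4 could be missed. Its dimmer second probe set was at 0.02 (interval -0.18 to 0.22), and neither isoform of SEPTIN4 can be assigned from these values.

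In the SEPTIN6 subgroup all 4 genes had differences above 0, and SEPTIN6 had the largest. SEPTIN6, the usual partner of SEPTIN2 and SEPTIN7 in the rods, was at 10.02, 10.07 and 10.12 with doxycycline and 10.28, 10.29 and 10.35 without. All 3 arrays without doxycycline were above all 3 with it. The difference was 0.24 (SE 0.06, interval 0.09 to 0.39, 1.18-fold), and it was not called (limma adjusted p = 0.219). Of all genes 6.50% had a difference at least as high, where 0.490% had one as low as that of SEPTIN3. SEPTIN10 was at 6.94, 6.87 and 7.06 with and 7.06, 7.05 and 7.23 without doxycycline, at 0.16 (interval -0.04 to 0.36), with overlapping groups. SEPTIN11, found at dendritic spines, was at 0.06 (interval -0.12 to 0.25), with arrays between 7.59 and 7.80 with and between 7.72 and 7.83 without doxycycline. SEPTIN8, which is known to bind the vesicle protein VAMP2, was at 0.02 (interval -0.16 to 0.19), with arrays between 5.19 and 5.39 with and 5.26 and 5.33 without.

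SEPTIN7, the subunit that no other septin replaces in the rods, was at 8.84, 8.63 and 8.73 with doxycycline and 8.84, 8.94 and 8.86 without. The groups touched without overlapping, and the difference was 0.14 (SE 0.08, interval -0.04 to 0.33). The SEPTIN7 values are uncertain because the genome holds several near-identical pseudogenes, 4 of them with named probe sets, and the authors' handling of shared probes is not given in the sources used here. SEPTIN7P14 was at 8.85, 9.04 and 8.95 with and 8.58, 8.68 and 8.54 without doxycycline, the reverse order of SEPTIN7. Its difference was -0.35 (SE 0.08, limma adjusted p = 0.159, not called). The 2 SEPTIN7P2 probe sets were at 0.17 and 0.17, SEPTIN7P9 at 0.22 and SEPTIN7P11 at -0.07, each with an interval that holds 0. The pseudogene rows were added after their values were seen.

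**Figure D2:**
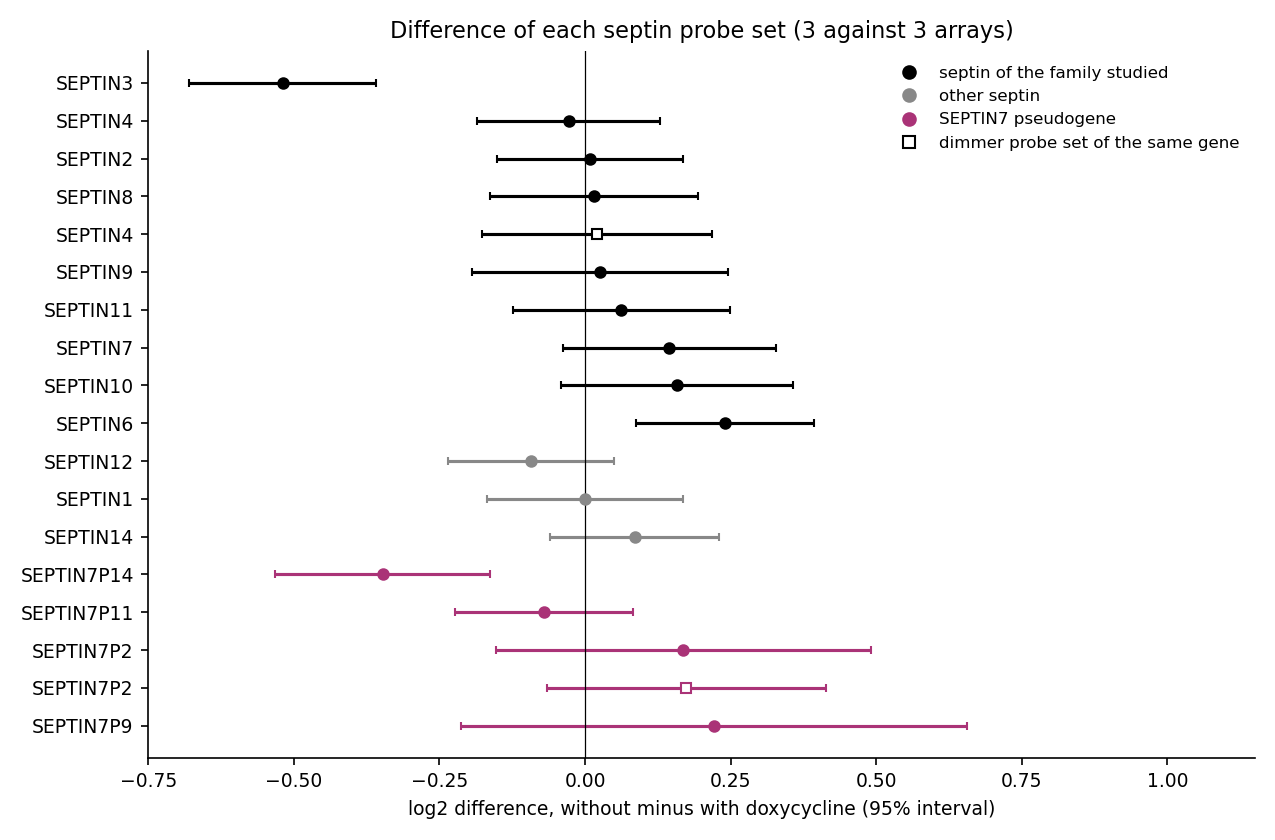
Log2 difference, no doxycycline minus doxycycline, of every named septin probe set with its 95% interval from the fit to all probe sets (3 against 3 arrays), with the septins described in black, other septins in grey and SEPTIN7 pseudogenes in purple. SEPTIN3 lies at -0.52 with an interval that ends at -0.36, and the other black points lie between -0.03 and 0.24.

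Across the family, 7 of 9 genes had a difference above 0 against 49.4% of all genes, and the median was 0.03 against -0.002 over all genes. An unadjusted limma p below 0.05 was reached by 2 of the 9, SEPTIN3 and SEPTIN6, against 12.4% of all probe sets. Of the 6664 probe sets at that p, 5061 lay above the median probe set, as did 8 of the 9 septins. The share among probe sets this bright is thus higher than 12.4%. The groups did not overlap for 3 of the 9, SEPTIN3, SEPTIN6 and SEPTIN7, against 19.3% of all probe sets. No reading is drawn from these shares, since the family was proposed with this comparison known.

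Set against the ubiquitous septins, SEPTIN3 stood at -0.61, the difference between its own -0.52 and their mean of 0.09. With SEPTIN2, SEPTIN7 and SEPTIN9 alone as the ubiquitous septins that value was -0.58. The lower end of the interval was -0.19 or higher for all 7 ubiquitous septins, above the upper end of -0.36 for SEPTIN3. Within an array, the log2 value of SEPTIN3 minus that of SEPTIN6 was -0.25, -0.17 and -0.23 with doxycycline and -0.97, -0.92 and -1.03 without, a shift of -0.76. The same quantity against SEPTIN7 was 0.93, 1.26 and 1.16 with and 0.46, 0.44 and 0.46 without, a shift of -0.66. For the other 5 ubiquitous septins the shift ran from -0.53 against SEPTIN2 to -0.68 against SEPTIN10, and the groups did not overlap for any of the 7. All 7 shifts share the SEPTIN3 values and are, like those, a description.

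**Figure D3:**
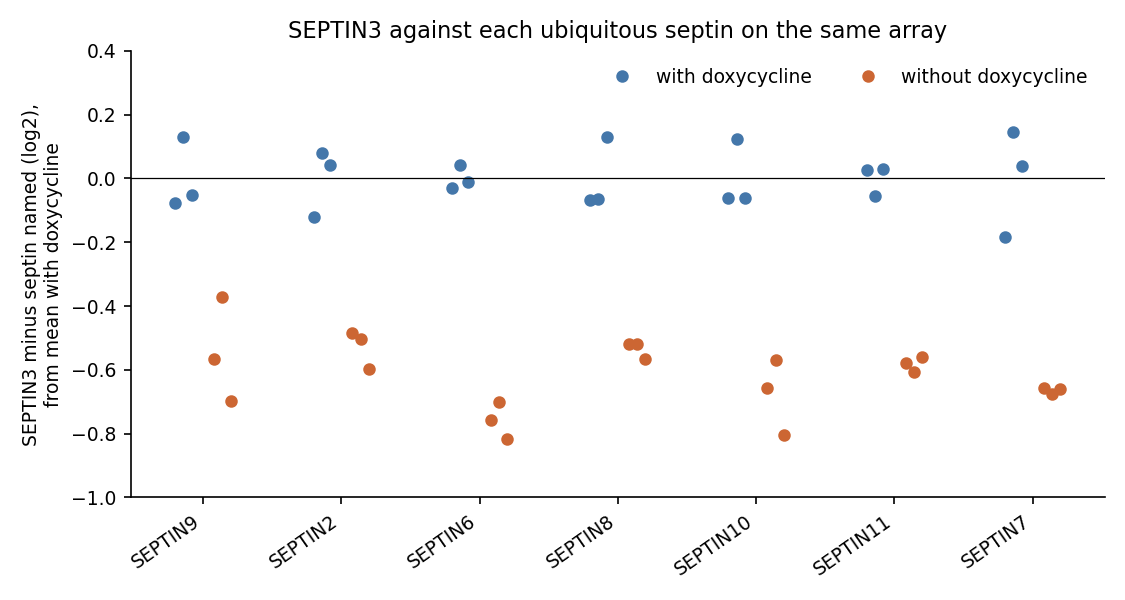
SEPTIN3 minus the ubiquitous septin named on the x axis, in log2 units within each array and centred on the mean of the 3 arrays with doxycycline (blue), with the 3 arrays without it in orange. All orange points lie below all blue points of the same column, and the mean shift runs from -0.53 (SEPTIN2) to -0.76 (SEPTIN6).

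Genes that work with septins were read from lists by role. Of 16 septin regulators and filament partners 12 had a named probe set. In limma 0 of the 12 were called and 0 had an unadjusted p below 0.05. Over all probe sets 0.341% were called and 12.4% reached that p, so 0 calls among 12 genes say little. Differences ran from -0.26 to 0.23 around a median of 0.04. Here SOCS7, which binds septins and the adaptor NCK, was at 0.23 (limma adjusted p = 0.411), and MAP4, a microtubule protein that competes with septins, at 0.12. CDC42EP2, a Borg protein that links CDC42 to septins, was at -0.19. Its groups overlapped. The other Borg genes measured, CDC42EP1, CDC42EP3, CDC42EP4 and CDC42EP5, lay between -0.08 and 0.11. Of the 12 genes, 3 lay below the median probe set, CDC42EP2, CDC42EP3 and CDC42EP5, so a change of these could be missed.

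Of 19 genes of cytokinesis, in which septin rings take part, 12 had a named probe set and all 12 had differences above 0, against 49.4% of all genes, with a median of 0.21. Of these, 2 rose in limma, the Aurora kinase AURKB (0.55, SE 0.07, adjusted p = 0.0413) and the Polo kinase PLK1 (0.63, SE 0.08, adjusted p = 0.0469), and 0 fell, where 0.248% of all probe sets were called higher. An unadjusted p below 0.05 was reached by 7, all higher, against 12.4% of all probe sets in either direction. That share is higher above the median probe set, where all 12 genes lay. Among the 7 was CEP55, which acts at the last cut between daughter cells (0.49, adjusted p = 0.0601). The list was drawn up with results of these arrays known, so it is no independent evidence of its direction. With any 1 array left out, 0 cytokinesis genes were called in limma and 6 to 8 had an unadjusted p below 0.05. Those fits called 0 to 15 of all probe sets, against 183 with all arrays.

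Of 15 SNARE and exocyst genes of vesicle release, which neuronal septins are known to restrain, 11 had a named probe set. In limma 0 of the 11 were called, where 0.341% of all probe sets were called. At an unadjusted p below 0.05 there were 0 higher and 3 lower, where 12.4% of all probe sets reached that p in either direction. That share is higher above the median probe set, where all 11 genes lay. The 3 were exocyst subunits, as are most of the 11. They were EXOC2 at -0.29, EXOC6 at -0.21 and EXOC1 at -0.16 (limma adjusted p = 0.253, 0.360 and 0.396). The count was 1 without doxycycline array 1 and without either of the no-doxycycline arrays 1 and 2, and 2 or 3 without any other array. The list had 9 differences below 0 and a median of -0.15, against -0.002 over all genes. STX1A, the syntaxin that SEPTIN5 binds, was at -0.15, and the vesicle proteins VAMP1 and VAMP2 at 0.13 and 0.08.

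Of 22 genes of the neuronal cytoskeleton, 15 had a named probe set, 1 rose in limma and 0 fell, where 0.248% of all probe sets were called higher and 0.0933% lower. The 1 was DPYSL3, a collapsin response mediator protein of growth cones, at 9.29 ± 0.03 without and 8.69 ± 0.09 with doxycycline (0.59, SE 0.07, adjusted p = 0.0414). This is opposite in sign to SEPTIN3. Its paralog DPYSL2 was at 0.28 (adjusted p = 0.189), MAP2 of dendrites at 0.24 and the axonal MAPT at -0.20. STMN2 was at -0.23, with groups that did not overlap. At an unadjusted p below 0.05 the list had 3 higher and 1 lower, against 12.4% of all probe sets in either direction. That share is higher above the median probe set, where all but 1 of the 15 lay. Differences centred on a median of 0.07. Neuronal cytoskeleton genes thus lay on both sides of 0. With any 1 array left out 0 of them were called in limma (3 to 5 at an unadjusted p below 0.05). Of all probe sets, 0 to 15 were called in those fits, against 183 with all arrays.

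**Figure D4:**
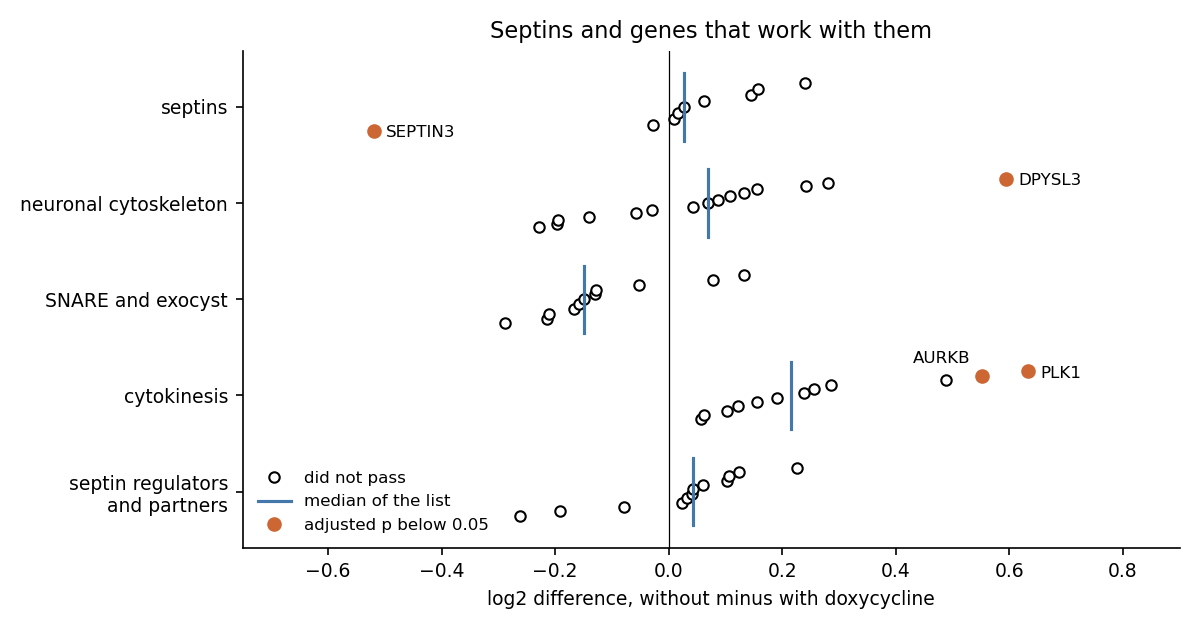
Log2 difference, no doxycycline minus doxycycline, of each measured septin and of each gene in the partner lists, 1 point per gene, with filled points for limma adjusted p below 0.05 and a blue line at each median. The filled points are SEPTIN3 at -0.52, DPYSL3 at 0.59, AURKB at 0.55 and PLK1 at 0.63, and the medians run from -0.15 (SNARE and exocyst) to 0.21 (cytokinesis).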

How the data were processed

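Log2 expression values, 1 for each probe set on each array, were deposited by the authors, who used Partek per the submitters' processing notes, which name no version. Which background correction, normalization and summary of probes they applied is not given in the sources used here. That the scale is log2 was read from the deposited values, which ran from 2.12 to 14.3. The number of arrays limits the precision. By GEO's platform annotation 16098 of 53617 probe sets were counted as named, each with 1 symbol, and 37519 as without a name. The count of 37519 does not separate probe sets with no symbol from any with several. A gene with several probe sets is represented by the brightest over all 6 arrays.

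A linear model of all 53617 probe sets was made with limma 3.58.1 (eBayes moderation, R 4.3.3), no doxycycline minus doxycycline, with no covariate or filter, and p-values were adjusted by Benjamini-Hochberg. The procedure was tested on simulated data. The members, gene lists and alternatives were chosen with earlier results of these data known. Named genes were all septins, KDM4C and, in each partner list, every gene past the threshold and, for either direction, the 2 of lowest p. Others are named as examples chosen after their values were seen, and 1 gene that the rule names is not reported here. The lists were septin partners, cytokinesis, SNARE and exocyst, neuronal cytoskeleton, general cytoskeleton, other septins and cell type markers. SEPTIN5 had no named probe set, so SEPTIN3 alone stands for the neuronal septins.

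Same-numbered arrays of the groups did not deviate together (correlation of deviations -0.01, -0.01 and 0.04), so the numbers were not taken as pairs. For arrays of different number it ran from -0.03 to 0.04. Such values over all probe sets cannot show that the samples were not made as pairs.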

Additional observations from a re-analysis of the deposited data

How the results depend on the processing

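The SEPTIN3 difference lay between -0.56 and -0.50 when any 1 array was left out and that of SEPTIN6 between 0.21 and 0.26. Of 73 single septin values recomputed under alternatives, 66 kept their sign and 0 moved by over 1 SD between replicates. Most of the 73 come from leaving out 1 array, which cannot shift a difference that far. For those the 0 was fixed in advance. Calls were less stable. With 1 array left out, limma called 0 to 15 probe sets (183 with all), 0 septins, 0 cytokinesis and 0 neuronal cytoskeleton genes, with 5542 to 6191 probe sets and 2 or 3 septins at an unadjusted p below 0.05. With the replicate number as a block (replicate block), limma called 0 probe sets and 0 genes of these 3 groups (6251 probe sets and 2 septins unadjusted, SEPTIN3 adjusted p = 0.191). That fit has fewer degrees of freedom. Whether samples of the same number were made as pairs is not known. Trend with robust moderation called 385 probe sets, and leaving out dim probe sets 479. SEPTIN3 was called in both and with quantile normalization (adjusted p = 0.0141, 0.0243 and 0.0490). With SEPTIN4 counted as neuronal, the neuronal mean was -0.27 and its distance from the ubiquitous septins -0.37, because SEPTIN4 was near 0. SEPTIN4 lay below the median probe set, where a change could be missed.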

Other observations

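The remaining septins measured on the arrays are those of lymphocytes (SEPTIN1) and of the male germ line (SEPTIN12 and SEPTIN14). SEPTIN1 was at 3.59 in both groups, a difference of 0.0003 with a 95% interval of -0.17 to 0.17. SEPTIN12 was at 3.52 ± 0.03 without and 3.61 ± 0.02 with doxycycline, and SEPTIN14 at 5.23 ± 0.04 and 5.14 ± 0.02. In neither did the groups overlap, as for 19.3% of all probe sets, and the differences were -0.09 and 0.09. SEPTIN1 and SEPTIN12 lay below the median probe set, and SEPTIN14 lay above it. No conclusion on a change of SEPTIN1 or SEPTIN12 is drawn from probe sets this dim. In limma 0 of the 3 were called and 0 had an unadjusted p below 0.05. Over all probe sets 0.341% were called and 12.4% reached that p.

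Of 17 genes of the general actin and microtubule cytoskeleton, 5 had a named probe set. In limma 0 were called, and at an unadjusted p below 0.05 there was 1, VIM, which encodes the intermediate filament protein vimentin, at -0.19. Over all probe sets 0.341% were called and 12.4% reached that p. The actin-binding proteins PFN1 and CFL1 were at 0.14 and 0.14, and the tropomyosins TPM4 and TPM1 at -0.08 and -0.03. CFL1, at 4.01 without and 3.87 with doxycycline, was the 1 of the 5 below the median probe set, if barely. A change of CFL1 could thus be missed.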
